A study of Mus musculus with 9 samples.

Results

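Pzp, A2m, Serpina10 and Slpi are 4 protease inhibitor genes out of the 17963 genes of a mouse kidney RNA-seq table. They were chosen from their measured values, because Pzp and A2m were lower and Serpina10 and Slpi higher in injured kidneys. Each gene was found by its Entrez identifier (11287 for Pzp, 232345 for A2m, 217847 for Serpina10 and 20568 for Slpi), and the counts of its transcripts were summed. The differences between groups in these 4 genes are therefore given as a description, with standard errors and without a test.

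The libraries came from kidney cortex of wild-type mice at day 4. Control mice received saline into the peritoneum and pure water by mouth, cisplatin mice received cisplatin into the peritoneum and pure water by mouth, and cisplatin+YSJZD mice received cisplatin into the peritoneum and Yishen Jiangzhuo decoction (YSJZD), a herbal preparation, by mouth. Cisplatin is a platinum drug that injures the kidney tubule. Each group had 3 libraries, and nothing in the sources used here says that each came from a mouse of its own, so p-values measure the spread between these libraries, which may be technical. The labels used here name no strain, sex, age or dose.

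Protease inhibitors limit the cutting of proteins by enzymes released in clotting, inflammation and tissue repair. Alpha-macroglobulins such as Pzp and A2m trap many kinds of protease in a cage that closes after the bait region is cut, and an internal thioester bond can link the trapped protease to the cage. Serpins such as Serpina10 are suicide inhibitors that change shape when their reactive loop is cut, and Slpi is a small secreted protein with WAP domains that blocks neutrophil elastase and cathepsin G. In mice, Pzp encodes the abundant tetrameric alpha-macroglobulin of plasma, Serpina10 encodes the protein Z-dependent inhibitor of clotting factor Xa, and Slpi is made by mucosal epithelia and by leukocytes.

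The thioester site sets the alpha-macroglobulin family apart from the other inhibitors, and it is shown here for Pzp, A2m and 3 of their relatives, Mug2, C3 and Cd109. The windows are 45 bases of the longest reading frame of the longest GENCODE transcript (GRCm38), 5′ to 3′, and the capitals mark the 15 bases that encode the thioester site.
Pzp: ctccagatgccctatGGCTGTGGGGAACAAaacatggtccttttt
A2m: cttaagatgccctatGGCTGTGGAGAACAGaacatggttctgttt
Mug2: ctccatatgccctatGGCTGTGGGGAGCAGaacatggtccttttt
C3: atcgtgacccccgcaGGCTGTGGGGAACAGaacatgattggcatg
Cd109: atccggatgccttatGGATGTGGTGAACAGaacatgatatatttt
The site lay at bases 2947 to 2961 of a reading frame of 4485 bases in Pzp and at bases 2911 to 2925 of 4422 bases in A2m. Pzp and A2m differed at 2 of the 15 site bases and at 6 of the 45 window bases. Their transcripts shared 0 of the 4632 words of 50 bases in Pzp, so stretches of that length belonged to 1 gene or the other. Mug2 was nearer to Pzp, with 2 site bases and 3 window bases different. C3 differed from Pzp at 1 of the 15 site bases but at 16 of the 45 window bases.

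Promoter sequence was at hand for 2 of the 4 genes, Pzp and Slpi, which showed opposite patterns across the groups. The stretches are the 250 bases before the start site from RefSeq (GRCm38.p6), read 5′ to 3′ on the minus strand. They lie at chr6:128526721-128526970 for Pzp and at chr2:164356508-164356757 for Slpi, and capitals mark motif matches.
Pzp: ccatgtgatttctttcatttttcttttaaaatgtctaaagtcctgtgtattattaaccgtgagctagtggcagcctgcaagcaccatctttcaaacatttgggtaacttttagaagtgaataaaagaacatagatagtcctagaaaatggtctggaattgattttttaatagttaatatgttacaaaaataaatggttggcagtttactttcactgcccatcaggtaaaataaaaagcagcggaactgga
Slpi: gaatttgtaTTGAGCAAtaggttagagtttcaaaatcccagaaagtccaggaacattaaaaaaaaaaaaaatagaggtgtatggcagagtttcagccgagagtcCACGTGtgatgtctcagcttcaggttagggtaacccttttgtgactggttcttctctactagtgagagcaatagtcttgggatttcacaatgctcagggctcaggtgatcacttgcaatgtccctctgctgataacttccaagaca
Searched on both strands were TATAAA (the TATA box), TGANTCA (AP-1), TTCNNNGAA (STAT), CACGTG (an E-box), the palindromic site of HNF1 and TTNNGCAA (C/EBP). The Slpi window held a C/EBP match at its bases 10 to 17 and an E-box at its bases 105 to 110, which do not overlap. Of 32851 promoter windows of the same length, 9.56% held the first and 6.02% the second. The Pzp window held none of the 6 motifs, which 12.4% (TATA), 6.75% (AP-1), 7.02% (STAT) and 0.00913% (HNF1) of windows held. A match describes letters only and is not evidence of binding.

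Library totals were 15029274 to 16690471 expected counts, and 13954 genes passed the filter on low counts, all 4 inhibitors among them. Ranks of the 4 inhibitors among these genes are a description, since the inhibitors were chosen for their values. Levels are in CPM, counts as a share of the library total scaled by the trimmed mean of M-values (TMM). Proximal tubule markers were measured as a check for kidney tissue, which does not tell cortex from whole kidney. The 16 markers summed to between 72914 and 93530 CPM in control, between 5440 and 8512 CPM in cisplatin and between 22040 and 41129 CPM in cisplatin+YSJZD. Kap alone held 42309 to 61090, 2039 to 5177 and 9376 to 21519 CPM in these groups, a large part of each sum. Of the 16 markers, 15 fell with cisplatin, beside 26% of all tested genes, and their median log2 difference was -3.68. In bulk tissue, fewer cells of a type and less RNA per cell cannot be told apart. Scaling by library totals in place of TMM moved the median of all genes from 0.04 to 0.27 (log2) for cisplatin against control and from 0.01 to 0.20 for cisplatin+YSJZD against control. The share of called genes that were higher then moved from 52.4% to 66.1% in the first comparison and from 51.4% to 75.4% in the second.

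Pzp was the most abundant of the 4 genes in control kidney and was nearly gone after cisplatin. Its level was 379, 268 and 305 CPM in the control libraries, 0.922, 2.17 and 6.02 CPM after cisplatin, and 63.1, 131 and 52.9 CPM in cisplatin+YSJZD. The 3 groups did not overlap, and the decoction group lay between the other two. The group means were 317 ± 56.4 CPM in control, 3.04 ± 2.66 CPM in cisplatin and 82.3 ± 42.3 CPM in cisplatin+YSJZD (SD, n = 3 each). The control mean was 105-fold the cisplatin mean, and the cisplatin+YSJZD mean reached 25.9% of control. On the log2 scale Pzp was at -6.72 ± 0.63 (SE) for cisplatin against control, 4.78 ± 0.59 for cisplatin+YSJZD against cisplatin and -1.95 ± 0.49 for cisplatin+YSJZD against control. It ranked 36 from the lowest of 13954 genes in the first of these comparisons and 21 from the highest in the second. Cisplatin replicate 3 held most of the Pzp counts left after cisplatin (97, against 17 and 38 in replicates 1 and 2). Without that library the differences were -7.68 for cisplatin against control and 5.73 for cisplatin+YSJZD against cisplatin. The proximal tubule markers moved in the same order as Pzp (control, then cisplatin+YSJZD, then cisplatin), and their part in the Pzp values was not tested.

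**Figure D1:**
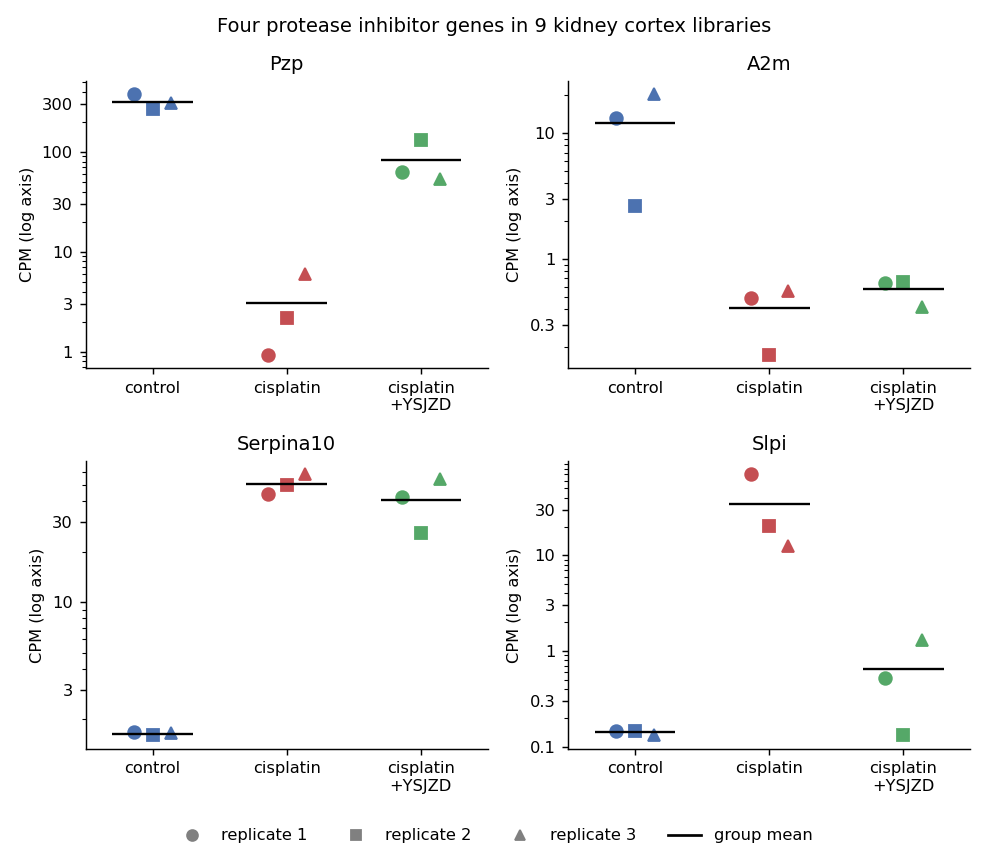
CPM of Pzp, A2m, Serpina10 and Slpi (log axis) in the 3 control, 3 cisplatin and 3 cisplatin+YSJZD libraries, with 1 symbol per library and a line at the group mean. Pzp and Slpi move back toward control in cisplatin+YSJZD, while A2m and Serpina10 stay near their cisplatin levels.

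A2m, the other alpha-macroglobulin, was also lower after cisplatin, but its level with the decoction overlapped that of cisplatin alone. The control libraries held 13.2, 2.62 and 20.5 CPM, the cisplatin libraries 0.488, 0.171 and 0.558 CPM, and the cisplatin+YSJZD libraries 0.642, 0.656 and 0.415 CPM. Control replicate 2 was far below the other control libraries, with the highest control library 7.82 times the lowest, yet it stayed above every treated library. Means were 12.1 ± 9.0 CPM in control, 0.406 ± 0.206 CPM in cisplatin and 0.571 ± 0.135 CPM in cisplatin+YSJZD (SD, n = 3 each). The cisplatin+YSJZD mean was 4.71% of control. The log2 differences were -4.88 ± 0.74 (SE) for cisplatin against control, 0.49 ± 0.80 for cisplatin+YSJZD against cisplatin and -4.39 ± 0.71 for cisplatin+YSJZD against control, the last of which ranked 23 from the lowest of 13954 genes. The treated libraries rest on few reads, between 3 and 11 counts each. A2m passed the filter only through control, so nothing is read from its rank. Without control replicate 3, the differences from control were -4.27 for cisplatin and -3.78 for cisplatin+YSJZD.

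Levels of both genes can be set side by side in FPKM, which divides by transcript length. The ratio of Pzp to A2m was 28.5, 102 and 14.8 in the control libraries, 1.92, 13 and 11 in the cisplatin libraries, and 95.7, 196 and 124 in the cisplatin+YSJZD libraries. Pzp thus exceeded A2m in every library, by least after cisplatin.

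Serpina10 was low and even in control kidney and higher in both treated groups. Its level was 1.67, 1.60 and 1.65 CPM in control, 44.5, 49.9 and 57.9 CPM after cisplatin, and 42.5, 25.8 and 54.4 CPM in cisplatin+YSJZD. Every treated library lay above every control library, and the 2 treated groups overlapped. Means were 1.64 ± 0.0367 CPM, 50.8 ± 6.79 CPM and 40.9 ± 14.4 CPM (SD, n = 3 each), so the cisplatin+YSJZD mean was 80.6% of the cisplatin mean. The log2 differences were 4.94 ± 0.29 (SE) for cisplatin against control, -0.31 ± 0.23 for cisplatin+YSJZD against cisplatin and 4.63 ± 0.29 for cisplatin+YSJZD against control. The last ranked 74 from the highest of 13954 genes. One RefSeq transcript, NM_144834.4, carried 98.9% of the Serpina10 counts, and the other rows, XM_011244095.1 and NM_001301404.1, carried 0.83% and 0.23%. Pzp, A2m and Slpi had 1 transcript row each.

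Slpi was close to the detection limit in control, was far higher after cisplatin and was back near the control level with the decoction. The control libraries held 2 counts each, or 0.145, 0.146 and 0.132 CPM. The cisplatin libraries held 70.2, 20.2 and 12.7 CPM, and the cisplatin+YSJZD libraries 0.525, 0.131 and 1.3 CPM. Every cisplatin library lay above every other library, while control and cisplatin+YSJZD overlapped. Means were 0.141 ± 0.00763 CPM in control, 34.4 ± 31.3 CPM in cisplatin and 0.654 ± 0.597 CPM in cisplatin+YSJZD (SD, n = 3 each), and the last was 1.90% of the cisplatin mean. The log2 differences were 7.85 ± 0.96 (SE) for cisplatin against control, -5.68 ± 0.78 for cisplatin+YSJZD against cisplatin and 2.17 ± 1.23 for cisplatin+YSJZD against control. The second ranked 11 from the lowest of 13954 genes. Slpi passed the filter only through cisplatin, so nothing is read from this rank. Cisplatin replicate 1 held 5.55 times the Slpi of the lowest cisplatin library. Without it the differences were 6.79 against control and -4.62 for cisplatin+YSJZD against cisplatin. Without cisplatin+YSJZD replicate 3, which held 22 of the group's 33 counts, the differences of that group were -6.64 from cisplatin and 1.21 from control.

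In cisplatin against control the libraries of the 2 groups did not overlap for 4 of 4 inhibitors, beside 63.4% of all tested genes. In cisplatin+YSJZD against cisplatin they did not overlap for Pzp (higher) and Slpi (lower), 2 of 4, beside 47.3% of all tested genes. In cisplatin+YSJZD against control they did not overlap for Pzp and A2m (lower) and Serpina10 (higher), 3 of 4, beside 40.3%. The inhibitors were chosen for such differences, and nothing is read from these counts. The 3 comparisons share libraries in pairs.

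The order of the 4 genes per transcript length changed with treatment. In control, Pzp led at 63.5 ± 8.81 FPKM, followed by A2m at 2.47 ± 1.92, Serpina10 at 1.03 ± 0.0529 and Slpi at 0.177 ± 0.00577 FPKM (SD, n = 3 each), and the libraries of A2m and Serpina10 overlapped. After cisplatin, Slpi stood at 52.0 ± 49.1 FPKM and Serpina10 at 37.2 ± 2.84 FPKM, with overlapping libraries. Pzp was then at 0.690 ± 0.565 FPKM and A2m at 0.0933 ± 0.0462 FPKM. In cisplatin+YSJZD, Serpina10 at 29.5 ± 10.9 FPKM and Pzp at 18.7 ± 9.26 FPKM overlapped, and Slpi at 0.947 ± 0.882 FPKM and A2m at 0.133 ± 0.0289 FPKM followed. The FPKM ratio of Serpina10 to Slpi was 5.82, 5.61 and 6.06 in control, 0.316, 1.23 and 2.29 after cisplatin, and 40.5, 101 and 20.9 in cisplatin+YSJZD.

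Serpina10 is a serpin that acts with protein Z (Proz), a vitamin K-dependent plasma protein that holds it on membranes, against the active form of factor X (F10). Proz moved opposite to Serpina10 with cisplatin. It was at 16.1, 24 and 17.7 CPM in control, 0.488, 0.742 and 0.248 CPM after cisplatin and 2.51, 4.2 and 7.12 CPM in cisplatin+YSJZD. Proz fell by 5.26 ± 0.48 on the log2 scale with cisplatin (edgeR adjusted p = 1.4e-05) and was higher in cisplatin+YSJZD than in cisplatin by 3.19 ± 0.47 (edgeR adjusted p = 0.000847). It remained below control by a log2 difference of -2.06 ± 0.38 (edgeR adjusted p = 0.0051). F10, the zymogen of the target protease, had 5 counts in all of the control group (0.145, 0.146 and 0.0662 CPM), 5.64, 27.2 and 5.15 CPM after cisplatin, and 0.175, 0.328 and 0.474 CPM in cisplatin+YSJZD. It rose by 6.66 ± 0.88 with cisplatin (edgeR adjusted p = 0.000139) and fell by 5.25 ± 0.76 between cisplatin and cisplatin+YSJZD (edgeR adjusted p = 0.000797). Without cisplatin replicate 2 these F10 differences were 5.43 and -4.02. F10 passed the filter only through cisplatin, so both directions were fixed by that filter and nothing is read from its p-values. F11, which encodes another protease that this serpin inhibits, had 1 count in control and 0 in both treated groups. Serpina10 thus stayed high in cisplatin+YSJZD, while F10 was far below its cisplatin level and Proz was between both other groups. F10 rested there on 3, 5 and 8 counts per library, still above every control library (1 or 2 counts).

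**Figure D2:**
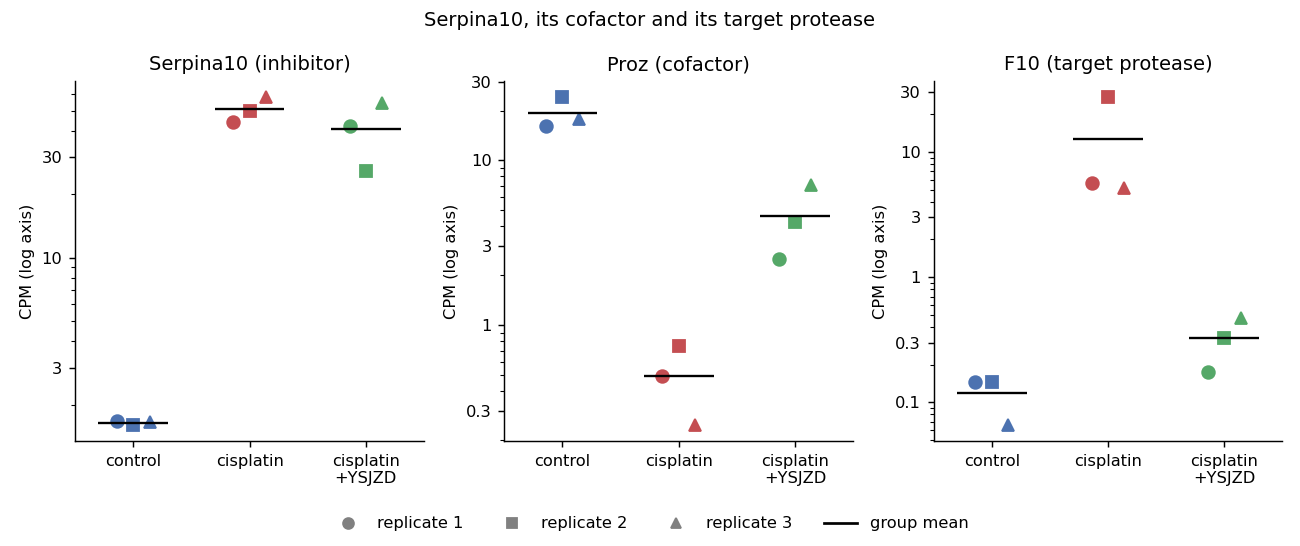
CPM (log axis) of Serpina10, its cofactor Proz and its target F10 in the 9 libraries, with 1 symbol per library and a line at the group mean. Proz is lowest in cisplatin (0.248 to 0.742 CPM), F10 is highest there (5.15 to 27.2 CPM), and Serpina10 is high in both treated groups.

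Slpi inhibits neutrophil elastase and cathepsin G, and the genes of both were at or near 0. Elane (neutrophil elastase) had 0 counts in control, 0 in cisplatin and 3 in cisplatin+YSJZD, and Ctsg (cathepsin G) had 1, 0 and 0. Prtn3 (proteinase 3), another serine protease of neutrophil granules, had 0 counts in control, 37 in cisplatin and 11 in cisplatin+YSJZD, and was at least 10.1-fold higher in cisplatin than in control when control is set to the floor of 3 reads per group. Other neutrophil markers were measurable. All 8 of the 8 neutrophil markers tested rose with cisplatin, beside 28.6% of all tested genes, and all 8 fell between cisplatin and cisplatin+YSJZD, beside 18% of all tested genes. Mmp8 and Ngp had 1 and 2 counts in control and 18 and 3 in cisplatin+YSJZD, so both passed the filter only through cisplatin. Their directions were fixed by that filter, and no result is read from the 8 of 8. The Ltf rise (log2 1.61, edgeR adjusted p = 0.0474) was lost by DESeq2 (adjusted p = 0.0739), by limma-voom (adjusted p = 0.0868) and without several single libraries. The sum of the 12 listed neutrophil markers was 2.33, 1.67 and 1.72 CPM in control, 28.1, 99.3 and 87.3 CPM in cisplatin, and 8.58, 8.59 and 3.97 CPM in cisplatin+YSJZD. Camp and Elane were at 0 in control and Elane and Mpo at 0 in cisplatin. The sum of 12 macrophage and monocyte markers was 176, 121 and 153 CPM in control, 1186, 2703 and 2414 CPM in cisplatin, and 763, 453 and 421 CPM in cisplatin+YSJZD. Of these 12 genes, 9 were higher in cisplatin than in control, beside 28.6% of all tested genes. Among the cisplatin libraries, replicate 1 had the highest Slpi level and the lowest sums of both leukocyte lists. In cisplatin+YSJZD, Slpi was highest in replicate 3, which had the lowest sums of both lists. Slpi rested in that group on 9, 2 and 22 counts, and the macrophage and monocyte sums of replicates 2 and 3 were close. Urothelial markers, 0 of 7 of which passed in any comparison, summed to between 2.76 and 45.3 CPM in control, between 3.19 and 77.1 CPM in cisplatin and between 2.61 and 11.6 CPM in cisplatin+YSJZD. The part of any cell type in the Slpi values was not tested.

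**Figure D3:**
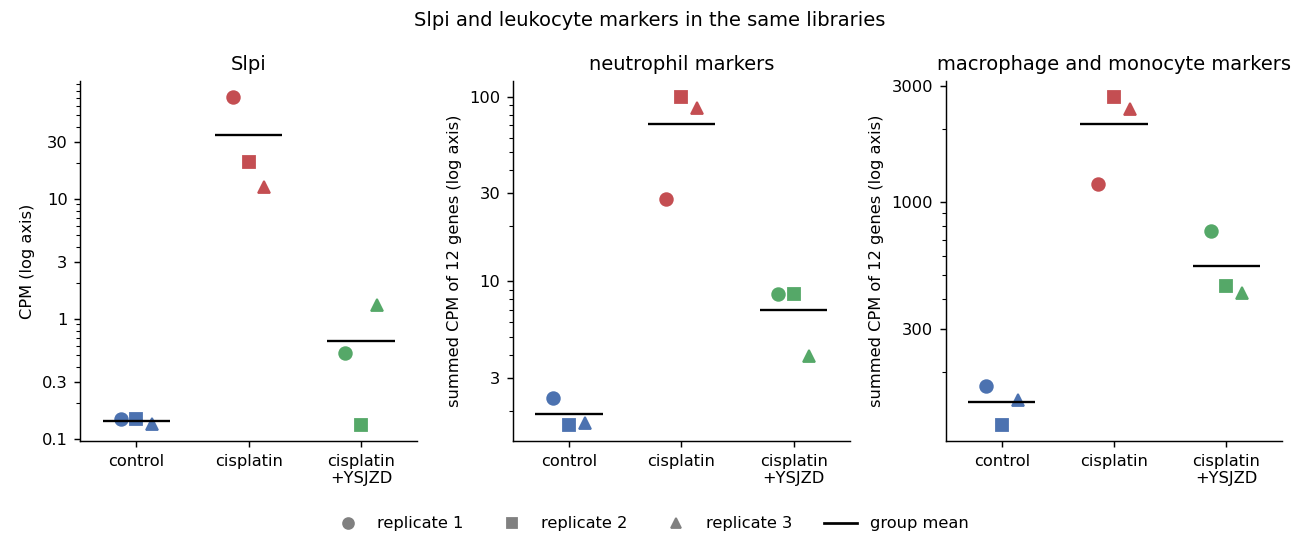
Slpi in CPM, and summed CPM of 12 neutrophil and 12 macrophage and monocyte markers (log axes), in the 9 libraries, with 1 symbol per library and a line at the group mean. All 3 are highest in cisplatin. The cisplatin library with the most Slpi (replicate 1, 70.2 CPM) has the lowest sum of each marker list in that group (28.1 and 1186 CPM).

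Alpha-macroglobulins that have caught a protease are cleared through the receptor Lrp1 and bind the chaperone Hspa5 (GRP78) at the cell surface. Lrp1 was at 34.7 ± 10.9 CPM in control, 168 ± 71.4 CPM in cisplatin and 50.1 ± 6.11 CPM in cisplatin+YSJZD (SD, n = 3 each). It rose with cisplatin (log2 2.28 ± 0.33, edgeR adjusted p = 0.000238) and fell between cisplatin and cisplatin+YSJZD (log2 -1.75 ± 0.32, edgeR adjusted p = 0.00265), the reverse of Pzp. Lrp2 (megalin), the scavenger receptor of the proximal tubule, fell by 3.59 ± 0.29 on the log2 scale with cisplatin (edgeR adjusted p = 8.06e-06). Lrpap1, the chaperone of this receptor family, fell by 2.24 ± 0.16 (edgeR adjusted p = 3.9e-06). Hspa5 averaged 1051 CPM in control, 308 CPM in cisplatin and 473 CPM in cisplatin+YSJZD, and fell by 1.77 ± 0.19 with cisplatin (edgeR adjusted p = 3.57e-05). Of the 7 tested receptors and cofactors, 3 rose and 4 fell with cisplatin, beside 28.6% and 26% of all tested genes.

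Among the 4 tested relatives of Pzp and A2m, C3, Cd109 and C4b rose and C4a fell with cisplatin, beside 28.6% of all tested genes higher and 26% lower. The C4b call (log2 1.47 ± 0.53, edgeR adjusted p = 0.0388) had overlapping groups and was lost by limma-voom (adjusted p = 0.12), with the replicate block (adjusted p = 0.0842), with only the 6 libraries compared (adjusted p = 0.0712) and without several single libraries, with a log2 difference of 0.36 without cisplatin replicate 3. C4b averaged 14.5 ± 5.1 CPM in control, 40.3 ± 37.4 CPM in cisplatin and 122 ± 16.1 CPM in cisplatin+YSJZD (SD, n = 3 each). C3, the central complement component, went from 8.33 ± 1.32 CPM in control to 4467 ± 2818 CPM in cisplatin and 2502 ± 985 CPM in cisplatin+YSJZD (SD, n = 3 each). It rose by 9.06 ± 0.59 on the log2 scale with cisplatin (edgeR adjusted p = 2.57e-06, and 8.41 without cisplatin replicate 3) and was still higher than control with the decoction (log2 8.23 ± 0.58, edgeR adjusted p = 3.91e-05). Cd109, a membrane-anchored member of the family, was at 0.860 ± 0.317, 14.2 ± 9.43 and 1.14 ± 0.476 CPM. It rose by 4.03 ± 0.55 with cisplatin (edgeR adjusted p = 0.000163) and fell by 3.62 ± 0.52 between cisplatin and cisplatin+YSJZD (edgeR adjusted p = 0.000797), with values of 3.35 and -2.94 without cisplatin replicate 1. C4a, a complement C4 gene whose transcript shares 35.2% of its 50-base words with C4b, fell by 4.41 ± 0.81 with cisplatin (edgeR adjusted p = 0.00113). The C4a difference was -3.49 without control replicate 1 and -5.87 without cisplatin replicate 3, and reads may be split between both C4 genes. Mug2, a murinoglobulin and single-chain alpha-macroglobulin, had 32 counts in control, 0 in cisplatin and 1 in cisplatin+YSJZD and did not pass the filter. Its summed control level was at least 13.0-fold the cisplatin level, but its control libraries held 0.873, 0 and 1.32 CPM and overlapped those of cisplatin, and control replicate 2 was the lowest control library for Mug2, as it was for A2m. Mug1, whose transcript shares 20.9% of its 50-base words with Mug2, was not analysed here, and reads of Mug1 may be counted as Mug2.

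Of the 11 tested clade A serpins besides Serpina10, 7 rose and 3 fell with cisplatin, beside 28.6% and 26% of all tested genes. Their median was 2.62 (log2), beside 0.04 over all genes tested. Between cisplatin and cisplatin+YSJZD, 3 of these serpins rose and 6 fell (median -1.66), beside 17.4% and 18% of all tested genes. Serpina6, among the 3, passed the filter only through cisplatin+YSJZD. Serpina10 had a log2 difference of -0.31 ± 0.23 and overlapping groups in that comparison. Serpina3n, an acute phase inhibitor of cathepsin G and related proteases, went from 0.163 CPM in control to 223 ± 128 CPM in cisplatin and 29.9 ± 5.74 CPM in cisplatin+YSJZD (SD, n = 3). It rose by 10.34 ± 0.57 with cisplatin (edgeR adjusted p = 1.98e-06) and fell by 2.90 ± 0.35 between cisplatin and cisplatin+YSJZD (edgeR adjusted p = 0.000321). Serpina3g averaged 1.37, 21.9 and 4.08 CPM in control, cisplatin and cisplatin+YSJZD, with a fall of 2.43 ± 0.26 between the last groups (edgeR adjusted p = 0.00016). Genes of the Serpina3 cluster are near copies of each other, so reads may be split among them. Serpina1f took the opposite course, with means of 70.5, 32.8 and 105 CPM and a log2 difference of 1.68 ± 0.16 for cisplatin+YSJZD against cisplatin (edgeR adjusted p = 0.000113). Whether any of these serpins differs from Serpina10 in its response was not tested.

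Of 8 tested serpins of clades C to I, 3 rose and 2 fell with cisplatin, a share called that is near the 54.6% of all tested genes. Serpinf2, the inhibitor of plasmin, was at 814 ± 141 CPM in control, 57.0 ± 29.1 CPM in cisplatin and 293 ± 24.5 CPM in cisplatin+YSJZD (SD, n = 3 each). It fell by 3.84 ± 0.35 with cisplatin (edgeR adjusted p = 1.4e-05) and rose by 2.36 ± 0.33 between cisplatin and cisplatin+YSJZD (edgeR adjusted p = 0.00065), an order of groups like that of Pzp. Serpinc1 (antithrombin), which like Serpina10 blocks factor Xa, averaged 3.31 CPM in control, 0.326 CPM in cisplatin and 1.09 CPM in cisplatin+YSJZD, and fell by 3.31 ± 0.44 with cisplatin (edgeR adjusted p = 0.000156). Of 6 tested clade B serpins, which act mostly inside cells, 5 rose with cisplatin, beside 28.6% of all tested genes. Between cisplatin and cisplatin+YSJZD 5 fell, beside 18% of all tested genes. Serpinb9b, with 1 count in control and 28 in cisplatin+YSJZD, passed the filter only through cisplatin. The Serpinb1a fall (log2 -1.28, edgeR adjusted p = 0.049) was lost by limma-voom (adjusted p = 0.115) and with the replicate block (adjusted p = 0.0993). Serpinb9, the granzyme B inhibitor, averaged 22.6, 206 and 54.1 CPM and rose by 3.18 ± 0.19 with cisplatin (edgeR adjusted p = 1.98e-06). Serpinb6a averaged 15, 161 and 39.5 CPM and rose by 3.42 ± 0.29 (edgeR adjusted p = 1.03e-05).

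Slpi belongs to the WAP domain proteins, of which 6 others were tested. With cisplatin 3 of these rose and 1 fell, beside 28.6% and 26% of all tested genes. Between cisplatin and cisplatin+YSJZD 1 of the 6 rose and 2 fell, beside 17.4% and 18%. Wfdc2 (HE4), an epithelial WAP protein, averaged 93.9 CPM in control, 396 CPM in cisplatin and 269 CPM in cisplatin+YSJZD, and rose by 2.08 ± 0.25 with cisplatin (edgeR adjusted p = 7.95e-05). Its level in cisplatin+YSJZD overlapped that in cisplatin and was above control (log2 1.52 ± 0.25, edgeR adjusted p = 0.00261). Wfdc15b went the other way, at 105 ± 36.8 CPM in control, 8.76 ± 2.03 CPM in cisplatin and 31.4 ± 14.9 CPM in cisplatin+YSJZD (SD, n = 3 each). It fell by 3.58 ± 0.42 with cisplatin (edgeR adjusted p = 6.64e-05) and rose by 1.84 ± 0.40 between cisplatin and cisplatin+YSJZD (edgeR adjusted p = 0.0061).

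Of 12 tested Kunitz inhibitors and inter-alpha-trypsin inhibitor chains, 5 rose and 3 fell with cisplatin, beside 28.6% higher and 26% lower over all tested genes. The genes that rose were Itih4, Ambp, Itih3, Spint1 and Spint2. Itih4 had 1 count in control, and its ratio of cisplatin to control was 69.5 (95% counting interval 12.1 to 2777). Spint1, an inhibitor of membrane-bound serine proteases, rose by 0.85 ± 0.15 (edgeR adjusted p = 0.000957). Itih2, a heavy chain that stabilises hyaluronan, fell by 5.39 ± 0.67 (edgeR adjusted p = 0.0001), and Tfpi2 fell by 1.98 ± 0.26 (edgeR adjusted p = 0.000132). Of 7 tested cystatins and relatives, 5 rose and 1 fell with cisplatin, beside 28.6% and 26% of all tested genes. Stfa2l1, with 0 counts in control, 80 in cisplatin and 8 in cisplatin+YSJZD, passed the filter only through cisplatin. Hrg, the gene that fell, passed only through control. Both directions were fixed by the filter, and no result is read from them. Cstb (cystatin B, an inhibitor of cathepsins) rose by 2.92 ± 0.33 (edgeR adjusted p = 4.92e-05). Hrg (histidine-rich glycoprotein) had 284 counts in control, 0 in cisplatin and 27 in cisplatin+YSJZD, so that control was at least 116-fold and cisplatin+YSJZD at least 9.52-fold higher than cisplatin. Of 4 tested metalloproteinase inhibitors, 1 rose and 2 fell with cisplatin, beside 28.6% and 26% of all tested genes. Timp1 averaged 0.119, 44.0 and 8.95 CPM and rose by 8.46 ± 0.61 (edgeR adjusted p = 4.01e-06, and 9.15 without control replicate 2). Timp3, which is bound to the matrix, averaged 3352, 1159 and 1820 CPM and fell by 1.53 ± 0.15 (edgeR adjusted p = 2.15e-05). Neither of the 2 tested Kazal inhibitors, Spink1 and Spink8, passed in any of the 3 comparisons.

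Over all 9 inhibitor families, 118 of 145 listed genes were in the table and 60 were tested, with the 4 inhibitors described above left out. The lists follow sequence families and hold some genes that do not inhibit proteases, such as the complement components C3, C4a and C4b and the hormone carrier Serpina6. Some of the tested genes, such as Serpinb9b, Stfa2l1, Hrg and Serpina6, passed the filter only through the group where they were highest. The counts below include directions fixed in that way. With cisplatin 32 rose, 13 fell and 15 did not pass, with a median log2 difference of 0.82 beside 0.04 over all genes, of which 54.6% were called (28.6% higher and 26% lower). Between cisplatin and cisplatin+YSJZD 13 rose, 22 fell and 25 did not pass, with a median of -0.47 beside -0.01, and 35.4% of all genes were called (17.4% higher and 18% lower). Against control, cisplatin+YSJZD had 19 higher, 8 lower and 33 that did not pass, with a median of 0.53 beside 0.01, and 19.3% of all genes were called (9.93% higher and 9.37% lower). Of 11 tested target proteases, 8 rose and 1 fell with cisplatin, beside 28.6% and 26% of all tested genes. F10 and Mmp8, among the 8, passed the filter only through cisplatin, so their directions were fixed by it. The Mmp12 rise (log2 1.41, edgeR adjusted p = 0.038) was lost by limma-voom (adjusted p = 0.0834), with the replicate block (adjusted p = 0.0716) and with only the 6 libraries compared (adjusted p = 0.0579). Plat (tissue plasminogen activator) rose by 3.86 ± 0.19 (edgeR adjusted p = 1.44e-06) and Mmp14, a membrane-bound metalloproteinase, by 3.50 ± 0.20 (edgeR adjusted p = 1.98e-06). Of the same 11 proteases, 7 fell between cisplatin and cisplatin+YSJZD, F10 and Mmp8 among them, beside 18% of all tested genes.

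**Figure D4:**
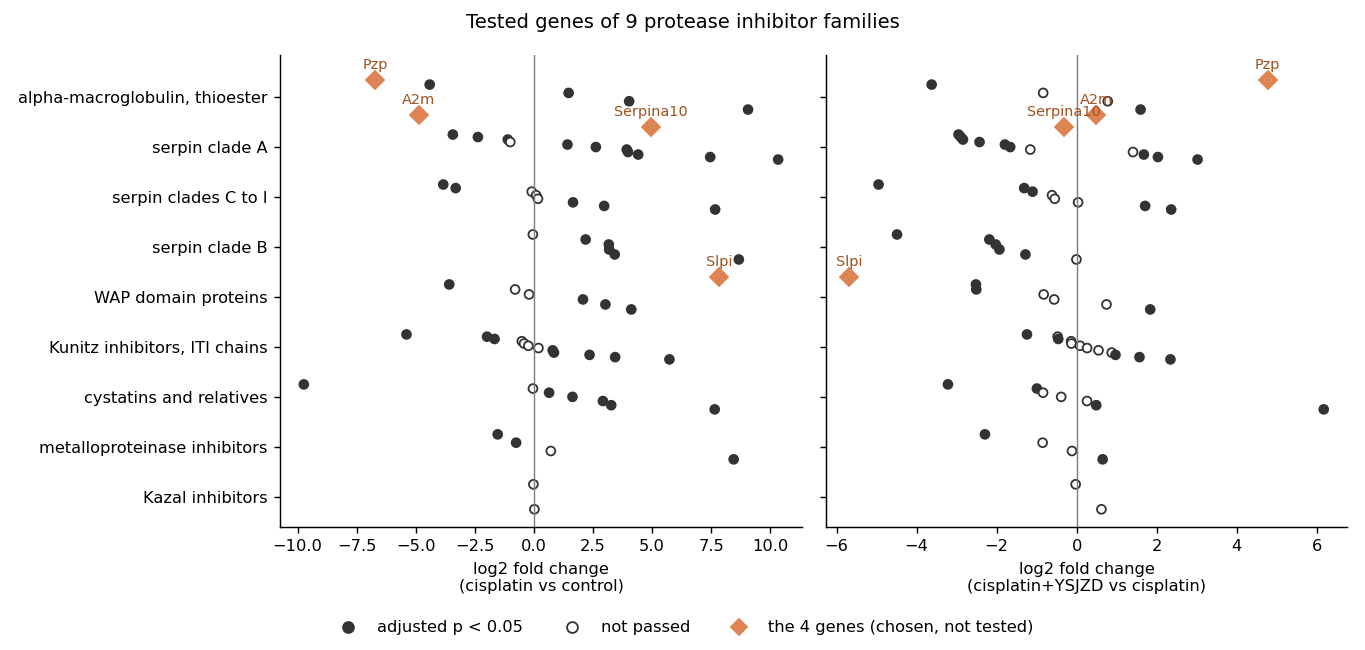
Log2 difference (x axis) of each tested gene of 9 protease inhibitor families (rows), for cisplatin against control on the left and cisplatin+YSJZD against cisplatin on the right. Filled points passed the edgeR test, open points did not, and diamonds are Pzp, A2m, Serpina10 and Slpi, which were chosen for their values and not tested. Most families hold genes on both sides of 0, and points of genes with 0 to 3 counts in a group, such as Hrg, are fitted values and no bound.

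Several of the genes described here are best known from the liver, so hepatocyte markers were measured in the same libraries. The 15 listed markers summed to between 90.2 and 128 CPM in control, between 753 and 2189 CPM in cisplatin and between 369 and 979 CPM in cisplatin+YSJZD. Of the 8 tested, 4 rose and 2 fell with cisplatin, beside 28.6% and 26% of all tested genes (median log2 1.06 beside 0.04). Fga, a fibrinogen chain, averaged 14.7, 924 and 366 CPM in control, cisplatin and cisplatin+YSJZD, and Fgg, another, averaged 0.739, 268 and 57.5 CPM. In each cisplatin library Fga (561 to 1556 CPM) and Fgg (130 to 538 CPM) made up most of the summed level, so the sum does not describe the other markers. Alb (albumin) averaged 4.07, 0.214 and 0.969 CPM. Ahsg and Tat were at 0 in control, Cps1 at 0 in cisplatin and Tat at 0 in cisplatin+YSJZD. The part of liver RNA in the values of Pzp, A2m and Serpina10 was not tested.

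The genes with profiles most like each inhibitor were found by distance between log2 CPM profiles over the 9 libraries, each centred on its control mean, and Pearson's r is given as a description over libraries that share their groups. For Pzp these were Prok1 (r = 0.995), Slc22a26 (r = 0.986) and Slc22a7 (r = 0.973), the last 2 being organic anion transporters. Prok1, a secreted prokineticin, averaged 93.3 CPM in control, 0.636 CPM in cisplatin and 18.2 CPM in cisplatin+YSJZD. For A2m they were Srd5a2 (r = 0.954), Rnf24 (r = 0.915) and C4a (r = 0.916). Srd5a2, a steroid 5-alpha-reductase, averaged 5.80, 0.256 and 0.522 CPM. For Serpina10 they were 1700007K13Rik (r = 0.986), Ces2e (r = 0.985) and Cxcl17 (r = 0.988). Ces2e, a carboxylesterase, averaged 5.94, 152 and 130 CPM. Cxcl17 had 2 counts in control, and its ratio of cisplatin to control was 86.3 (95% counting interval 23.6 to 717). For Slpi they were Serpinb9b (r = 0.982), S100a6 (r = 0.975) and Cxcl3 (r = 0.959). S100a6, a calcium-binding protein, averaged 6.63, 593 and 30.1 CPM. Serpinb9b had 1 count in control, and its ratio of cisplatin to control was 560 (95% counting interval 100.2 to 22152). Cxcl3, a neutrophil-attracting chemokine, had 0 counts in control and was at least 150.2-fold higher in cisplatin.

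Neighbours on the chromosome were taken from the order of genes in RefSeq. Ppp4r4, next to Serpina10, had overlapping libraries in all 3 comparisons, with means of 4.55, 4.13 and 4.48 CPM in control, cisplatin and cisplatin+YSJZD. Serpina6 (corticosteroid-binding globulin), on the other side of Serpina10 beyond a pseudogene, averaged 0.498, 0.248 and 2.08 CPM. It was higher in cisplatin+YSJZD than in cisplatin (log2 3.02 ± 0.69, edgeR adjusted p = 0.00769). Ifi27l2b, beyond Ppp4r4, rose by 5.12 ± 0.48 with cisplatin (edgeR adjusted p = 1.63e-05) and fell by 3.45 ± 0.40 between cisplatin and cisplatin+YSJZD (edgeR adjusted p = 0.000275), whereas Serpina10 stayed high. Ifi27l2b had 6, 266 and 23 counts in control, cisplatin and cisplatin+YSJZD and passed the filter only through cisplatin. Serpina6 had 22, 13 and 103 counts and passed only through cisplatin+YSJZD. These directions were fixed by the filter, and nothing is read from the p-values of both genes. Matn4, near Slpi, overlapped between groups in all 3 comparisons, at 1.12, 0.918 and 1.06 CPM. The 2 nearest genes on each side of Pzp are annotated as pseudogenes and were not analysed here. Iqsec3, near A2m, had 8, 11 and 4 counts in the 3 groups and did not pass the filter.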

How the data were processed

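The deposited table gives, per the file headers, a read count and an FPKM value for each RefSeq transcript in each of the 9 libraries. The counts are expected counts (estimated counts, not all whole) and were deposited with RSEM 1.3.1 and DESeq2 1.4.5 named in the submitters' processing notes. The FPKM values deposited by the authors were summed per gene and used only for levels between genes. The aligner is not given in the sources used here. The notes name GRCh38, a human build, so no gene coordinates are printed other than those of the RefSeq promoter windows (GRCm38.p6). The 6 columns of group averages were not used. Of the 17963 genes, 17847 had a symbol in the RefSeq table.

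Counts were summed per Entrez gene, rounded and filtered with filterByExpr, which removed 4009 genes. The remaining 13954 were fitted over all 9 libraries with edgeR 4.0.16 (TMM factors 0.855 to 1.105, quasi-likelihood test, Benjamini-Hochberg adjustment over all tested genes, called at an adjusted p of 0.05). The script was tested on simulated data. A floor of 3 counts over a group equals 0.0576 to 0.0704 CPM, and floors and intervals cover counting error only. The 4 inhibitors and the gene lists were chosen with earlier results of these data known. The genes named are the 4 inhibitors, up to 3 called genes per family by smallest p, a fixed set of partners (such as Proz, F10, Elane, Lrp1 and Hspa5), the 3 nearest profiles and the 2 neighbours on each side of each inhibitor. C4b, Itih4, Ambp, Itih3, Spint1, Spint2, Serpinc1, Lrp2, Alb, Fga and Fgg, where the rule did not name them, and Mug2 were named after their values were seen. Alternatives were DESeq2 1.42.0, limma-voom (limma 3.58.1), DESeq2 size factors, library totals, no filter, a filter of 5 CPM in 3 libraries, only the 6 libraries compared, a replicate block, and each library left out in turn.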

Additional observations from a re-analysis of the deposited data

How the results depend on the processing

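Each result was recomputed under 17 settings, and the log2 differences of Pzp, A2m, Serpina10 and Slpi kept their sign in every setting that gave a value. A2m in all 3 comparisons at a filter of 5 CPM in 3 libraries, and A2m and Slpi in 1 comparison each with only the 6 libraries compared, did not pass the filter. Of 199 recomputed values, 191 moved by less than 1 SD between replicates and 8 by more, most of them on leaving out a library named beside the result. A2m for cisplatin+YSJZD against cisplatin was at 0.12 without cisplatin replicate 2. By library totals, Serpina10 was at 5.16 for cisplatin against control, and by limma-voom Slpi was at 7.24 for that comparison and 1.52 for cisplatin+YSJZD against control. Genes called numbered 7616 for cisplatin against control (6576 to 7979 with 1 library left out), 4942 for cisplatin+YSJZD against cisplatin (3496 to 4871) and 2694 for cisplatin+YSJZD against control (1607 to 3138, with 1607 without control replicate 1 and 1699 without control replicate 2). Listed inhibitors called numbered 45 (45 to 50 with 1 library left out), 35 (26 to 38) and 27 (22 to 32). Over the other settings the listed inhibitors called ranged more widely, at 33 to 59, 26 to 40 and 23 to 33. All genes called numbered 6533 to 7859, 4184 to 5497 and 2367 to 3382 over those settings. With the replicate number as a block the calls were 7348, 4590 and 2367 genes and 43, 31 and 28 inhibitors. Same-numbered libraries correlated at -0.197 to 0.092 and differently numbered ones at -0.196 to 0.241. No pairing by number was thus seen, though 3 libraries per group are too few to exclude it. Depth limits A2m in the treated groups and Slpi in control, which rest on a few reads per library.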
